A study of Homo sapiens with 6 samples.

Results

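Heme synthesis enzymes and biliverdin reductases are described here in human Molm13 leukemia cells with and without CRISPR targeting of COX4I1. The 9 genes were ALAS1, ALAD, UROS, UROD, CPOX, PPOX and FECH, which encode enzymes of heme synthesis, and BLVRA and BLVRB, which encode the reductases that act after heme is opened. They were chosen by gene symbol for their place in the pathway, by a rule that takes no values but was set with earlier results of these data known. All 9 of them were among the 19845 gene symbols of the count table. Of the 9 genes, 8 passed the filter on low counts and were tested.

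Messenger RNA was sequenced from 6 libraries of Molm13, a human acute myeloid leukemia line with an MLL rearrangement, all of them stably expressing the Cas9 nuclease. In 3 libraries (sgCtrl) the cells carried a control guide RNA, and in 3 libraries (sgCOX4I1) a guide against COX4I1, which encodes a nuclear subunit of cytochrome c oxidase, the last complex of the respiratory chain. Guides were delivered by lentivirus in the ipUSEPR vector, which carries puromycin resistance. The study's methods give puromycin at 1.0 ug/ml for cells infected with its guide libraries. Each numbered library of a group carried a different guide, so the replicates differ in guide, no isolation of clones is described, and the time from transduction to harvest was not given in the sources used here.

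As background, heme is iron held in a porphyrin ring, and its synthesis begins and ends inside mitochondria. ALAS1, the rate-controlling enzyme outside the erythroid lineage, joins glycine and succinyl-CoA in the mitochondrial matrix, cytosolic enzymes that include ALAD, UROS and UROD build and trim the ring, and CPOX, PPOX and FECH finish it in mitochondria, where ferrochelatase (FECH) inserts the iron. Heme oxygenases, encoded by HMOX1 and HMOX2, open the ring to biliverdin. BLVRA encodes the main reductase of biliverdin in adult tissue, and the enzyme of BLVRB reduces biliverdin IX beta and flavins. Cytochrome c oxidase itself carries heme a, which is made from heme in mitochondria, and heme lowers ALAS1 through feedback and releases HMOX1 from the repressor BACH1.

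The promoters below are shown because they belong to the first and the last enzyme of synthesis, between which the other enzymes act, and to the 2 biliverdin reductases, of which BLVRA was nearly unread and BLVRB was not. Each line holds the 250 bases before the RefSeq start of the gene (GRCh38.p14), on the coding strand and 5′ to 3′. Capitals mark GC boxes, GGGCGG or its complement CCGCCC, and in FECH also GCGAGGTCA, which read on the other strand has the antioxidant response core TGACNNNGC and lies 38 bases before the start.
ALAS1, chr3:52197833-52198082, plus strand: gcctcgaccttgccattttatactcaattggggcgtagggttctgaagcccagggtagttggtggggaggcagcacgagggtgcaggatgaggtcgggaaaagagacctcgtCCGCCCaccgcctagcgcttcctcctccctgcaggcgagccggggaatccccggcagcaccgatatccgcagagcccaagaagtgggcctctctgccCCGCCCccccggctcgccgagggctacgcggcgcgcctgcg
FECH, chr18:57586703-57586952, minus strand: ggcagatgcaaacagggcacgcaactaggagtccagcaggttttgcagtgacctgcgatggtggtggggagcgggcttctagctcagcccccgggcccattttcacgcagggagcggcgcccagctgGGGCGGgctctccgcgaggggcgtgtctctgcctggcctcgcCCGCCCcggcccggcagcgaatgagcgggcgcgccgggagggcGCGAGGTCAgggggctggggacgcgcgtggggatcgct
BLVRA, chr7:43758430-43758679, plus strand: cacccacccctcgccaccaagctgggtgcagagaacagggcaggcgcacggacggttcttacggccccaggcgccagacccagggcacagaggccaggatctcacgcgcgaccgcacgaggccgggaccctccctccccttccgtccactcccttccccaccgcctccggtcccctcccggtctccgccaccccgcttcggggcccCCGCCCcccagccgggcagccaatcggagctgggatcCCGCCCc
BLVRB, chr19:40465746-40465995, minus strand: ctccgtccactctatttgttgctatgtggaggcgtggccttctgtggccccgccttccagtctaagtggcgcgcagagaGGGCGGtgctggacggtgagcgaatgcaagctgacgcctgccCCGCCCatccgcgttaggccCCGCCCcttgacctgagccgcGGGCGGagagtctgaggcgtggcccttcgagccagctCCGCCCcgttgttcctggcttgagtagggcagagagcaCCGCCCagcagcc

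These 4 promoters were GC-rich, with 67.2% GC and 22 CpG dinucleotides for ALAS1, 72.4% and 26 for FECH, 74.4% and 23 for BLVRA and 67.2% and 21 for BLVRB, where the median of all 35114 RefSeq promoters was 58% GC and 11 CpG. RefSeq windows were at hand for 8 of the 9 genes, in 10 windows, and UROS was not matched. A GC box on either strand was present in 9 of the 10 windows and in at least 1 window of all 8 genes, against 42.6% of all promoters. The antioxidant response core TGACNNNGC, searched on both strands, was in 1 of the 10 windows, that of FECH, and in 10.9% of all promoters. The letters AGATAA, a motif of the GATA factors, were in CPOX and in 1 of the windows of PPOX (9.17% of all promoters), and CCAAT was in ALAD, ALAS1, BLVRA and PPOX (32% of all promoters). None of the windows held CACGTG (6.35% of all promoters), the amino acid response core TGATGNAA (3.14%) or the NRF1 half-site TGCGCA (6.89%) upstream of the start. ALAS1 had the 10-letter NRF1 motif from 22 bases after its start, a motif that 1.24% of all promoters held when the 50 bases after the start were counted. These motifs may overlap each other, and a match of letters is a description of the window only.

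The libraries held from 17241014 to 30861943 counts, so that 3 counts correspond to between 0.0972 and 0.174 CPM, counts scaled to a total of 1000000 per library. COX4I1, the targeted gene, stood at 513, 502 and 463 CPM in sgCtrl #1, #2 and #3 and at 132, 378 and 133 CPM in sgCOX4I1 #1, #2 and #3. The library labelled sgCOX4I1 #2 thus kept 76.7% of the sgCtrl mean, against 26.7% and 27.0% in the others of its group, and the difference missed the threshold with all 6 libraries (log2 fold change -1.21, adjusted p = 0.0512) and passed it without sgCOX4I1 #2 (-1.89, adjusted p = 3.37e-06). Over the 14 alternatives COX4I1 passed in 7, among them limma-voom with all 6 libraries (adjusted p = 0.0291), with adjusted p-values up to 0.272 and a log2 fold change below 0 in each. All 12 myeloid markers passed the filter, with a summed level of 3551 to 4463 CPM in sgCtrl and 4059 to 5327 CPM in sgCOX4I1. LYZ alone averaged 1590 CPM in sgCtrl and 2717 CPM in sgCOX4I1. By log2 fold change, 5 of the 12 markers lay above 0 and 7 below 0. Of 16 erythroid markers 1 passed, the erythropoietin receptor EPOR, while 10 had 0 counts in every library and the others had at most 3 counts in any library, and their summed level was 14.2 to 16.9 CPM in sgCtrl and 12.5 to 13.7 CPM in sgCOX4I1. Of 6 lymphoid markers NCAM1 alone passed, at 101 to 147 CPM, and the others had at most 13 counts in any library. The part of these marker levels in the results that follow was not tested.

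Compared per length, the 9 genes spanned a wide range in the sgCtrl libraries, with UROS, ALAS1 and BLVRB at the top, FECH far below the other enzymes of synthesis and BLVRA last. On the scale of CPM per kilobase of the canonical transcript, the sgCtrl level was 54.3 ± 4.83 for UROS (SD, n = 3), 45.4 ± 0.171 for ALAS1, 38.2 ± 3.03 for BLVRB, 29.7 ± 3.07 for UROD, 20.9 ± 0.890 for ALAD, 18.9 ± 0.329 for CPOX, 13.96 ± 1.504 for PPOX and 2.52 ± 0.0487 for FECH. The libraries of neighbours in this order did not overlap, from 50.5 to 59.7 for UROS and 45.3 to 45.6 for ALAS1 down to 19.9 to 21.7 for ALAD, 18.5 to 19.2 for CPOX and 12.4 to 15.4 for PPOX. In sgCOX4I1 the order of the means was the same, but BLVRB (40.5 to 43.1) overlapped ALAS1 (41.6 to 43.6), and CPOX (16.3 to 19.2) overlapped ALAD (17.8 to 20.6). FECH had the longest canonical transcript of the 9 genes, 7689 bases. Its annotated exons together were longer still, 11128 bases, so neither length shows where a shorter FECH transcript would rank. Before division by length its sgCtrl mean was 19.4 CPM, against 24.2 CPM for PPOX. The order depends on the length taken for each gene. Divided by all annotated exons of a gene instead, UROS stood at 7.64 CPM per kilobase and moved from rank 1 to rank 6, while ALAS1 at 42.6 came first, BLVRB at 18.9 second, FECH at 1.74 stayed eighth and BLVRA ninth. ALAS2, the erythroid form of the first enzyme, had 0 counts in all 6 libraries.

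**Figure D1:**
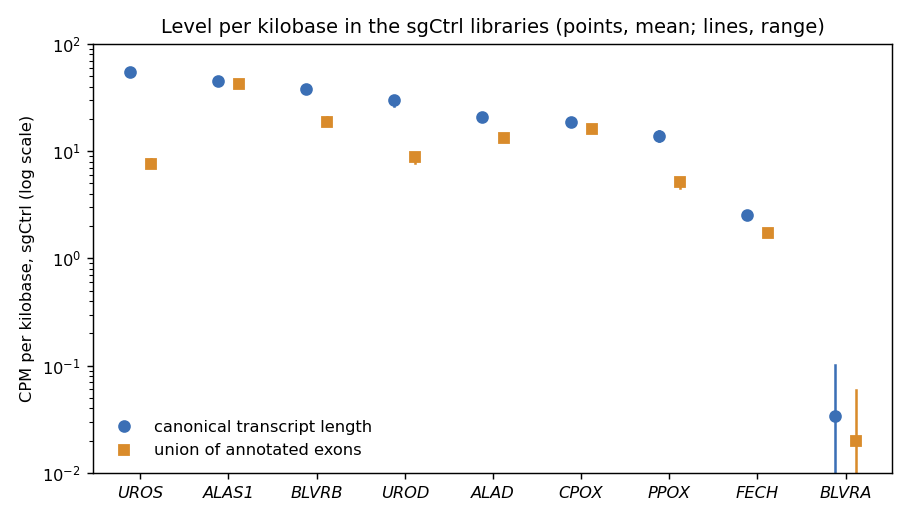
Level of each gene in the 3 sgCtrl libraries, as CPM per kilobase on a log axis, with points for the mean and lines for the range over libraries; blue divides by the canonical transcript and orange by all annotated exons. UROS stands at 54.3 by the first length and 7.64 by the second, FECH at 2.52 and 1.74, and the lines of BLVRA run off the axis because 2 of its 3 libraries are at 0.

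None of the 8 tested genes was called between sgCOX4I1 and sgCtrl. FECH had the largest difference, 1.23-fold higher in sgCOX4I1 with an adjusted p of 0.146, and the other 7 log2 fold changes lay between -0.17 and 0.13. A gene was called at an adjusted p under 0.05 in edgeR's quasi-likelihood test over 11861 genes, which 247 genes reached (2.08%), 126 of them higher in sgCOX4I1 (1.06%), and 24 genes also changed by at least 2-fold (0.202%). DESeq2 and limma-voom also called 0 of the 8, where they called 3.93% and 2.12% of all genes tested. In edgeR 1 of the 8, FECH, had an unadjusted p under 0.05, as had 2054 of the 11861 genes tested. Fitted values were above 0 for 3 genes (UROS, FECH and BLVRB) and below 0 for 5 (ALAS1, ALAD, UROD, CPOX and PPOX), with a median log2 fold change of -0.071, where the median of all genes tested was -0.0023 and their quartiles were -0.119 and 0.117. FECH and ALAS1 had separate ranges in sgCtrl and sgCOX4I1, FECH above and ALAS1 below, which makes 2 of the 8, a share near the 21.6% of all genes tested that had separate ranges. The summed level of the 8 genes and BLVRA was 399 to 417 CPM in sgCtrl and 391 to 410 CPM in sgCOX4I1. Without sgCOX4I1 #2, where 51 of 12001 genes were called (0.425%), FECH had a log2 fold change of 0.35 and an adjusted p of 0.196, and 0 of the 8 were called, a count that says little at that share. In bulk RNA, fewer cells that express a gene and less of its RNA per cell cannot be told apart.

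**Figure D2:**
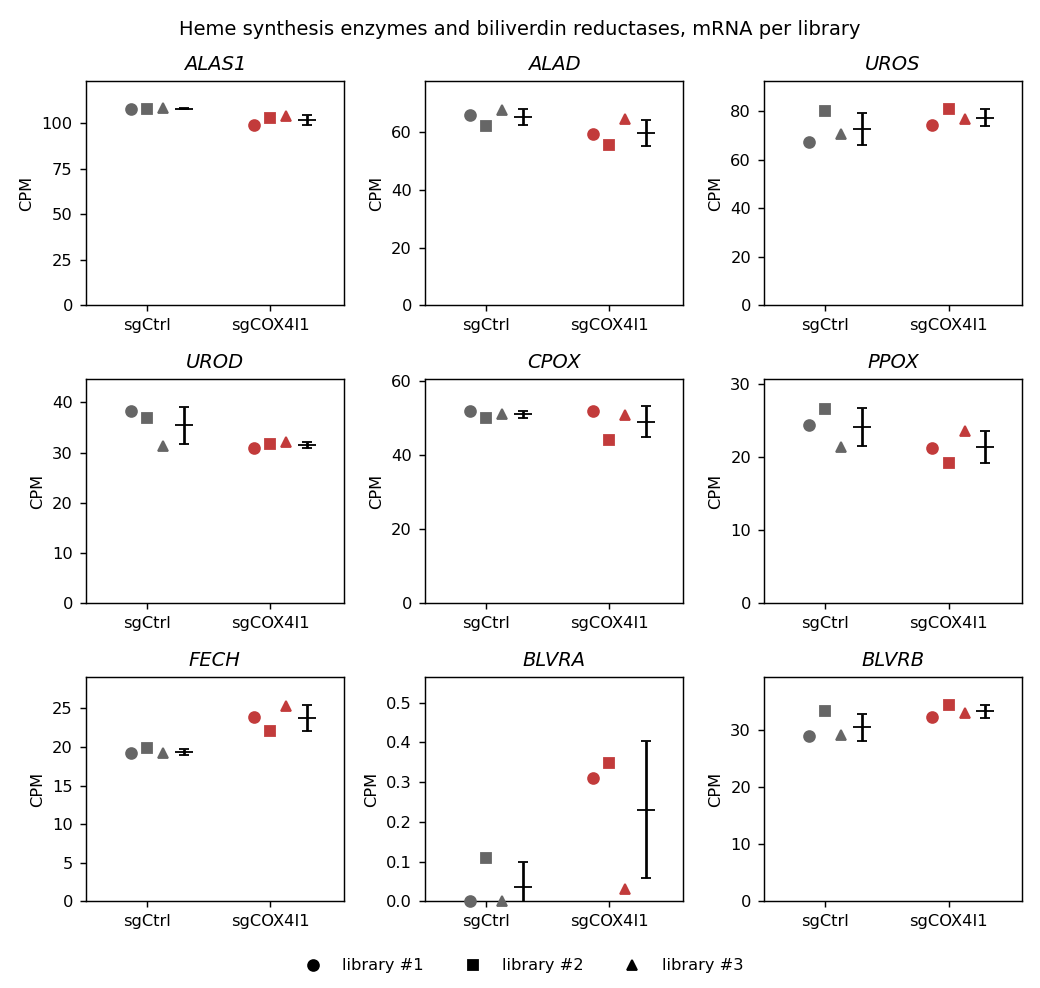
CPM of each of the 9 genes in every library, one panel per gene with an axis from 0, grey for sgCtrl and red for sgCOX4I1, with marker shape for the library number and black bars for the mean and SD of 3 libraries. FECH is at 19.2 to 19.8 CPM in sgCtrl and 22.0 to 25.3 CPM in sgCOX4I1, ALAS1 lies just lower in sgCOX4I1, and BLVRA is near 0 throughout, on a finer axis where the sgCtrl SD bar is cut at 0.

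Of the 4 mitochondrial enzymes, FECH had a fitted value above 0 and ALAS1, CPOX and PPOX below 0, and none passed the test. FECH, which inserts iron into protoporphyrin, was read at 19.2, 19.8 and 19.2 CPM in sgCtrl #1 to #3 and at 23.9, 22.0 and 25.3 CPM in sgCOX4I1 #1 to #3. All 3 sgCOX4I1 libraries were above all 3 sgCtrl libraries. The means were 19.4 ± 0.374 and 23.7 ± 1.65 CPM (SD, n = 3), and the log2 fold change was 0.30 ± 0.0998 (SE), with a 95% interval of 1.06 to 1.42 in fold. The edgeR p was 0.0104, rank 848 of 11861, and 0.146 after adjustment, and an exact two-sided permutation test gave 0.1, the smallest p that 3 against 3 libraries allow. The gene (chr18:57544377-57586732, minus strand, GRCh38) has 11 exons in its canonical transcript and a processed pseudogene, FECHP1, whose reads a counter could share with it.

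ALAS1, the rate-controlling first enzyme, was read at 107.7, 107.7 and 108 CPM in sgCtrl and at 98.8, 103 and 104 CPM in sgCOX4I1. The sgCOX4I1 libraries were all below the sgCtrl libraries, which lay within 1 CPM of each other. The log2 fold change of ALAS1 was -0.086 ± 0.0689 (SE; adjusted p = 0.564), a 0.942-fold level whose 95% interval, -0.23 to 0.062 on the log2 scale, includes 0. ALAS1 lies at chr3:52198086-52214327 on the plus strand, with 12 exons.

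CPOX, which oxidizes coproporphyrinogen between the mitochondrial membranes, was at 51.9, 50.1 and 51.2 CPM in sgCtrl and 51.9, 44.2 and 50.9 CPM in sgCOX4I1. Apart from sgCOX4I1 #2 the libraries covered the same range. Its log2 fold change was -0.057 ± 0.0839 (SE; adjusted p = 0.780), and without sgCOX4I1 #2 it was 0.011. CPOX (chr3:98579446-98593648, minus strand, 7 exons) shares 6.02% of its exon bases with an overlapping read-through annotation of equal orientation. PPOX, the enzyme between CPOX and FECH, was at 24.5, 26.7 and 21.5 CPM in sgCtrl and 21.3, 19.2 and 23.7 CPM in sgCOX4I1, and the groups overlapped. The log2 fold change of PPOX (chr1:161166056-161178013, plus strand, 13 exons) was -0.17 ± 0.114 (SE; adjusted p = 0.477), with a 95% interval of -0.42 to 0.075.

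The level of FECH was also set against that of another enzyme in the same library, as a description with no test, since both ratios were chosen after the values of their genes were seen. The ratio of FECH to ALAS1 CPM was 0.178, 0.184 and 0.177 in sgCtrl and 0.242, 0.215 and 0.244 in sgCOX4I1, means of 0.180 ± 0.00387 and 0.234 ± 0.0163 (SD, n = 3). That these do not overlap follows from FECH lying above and ALAS1 below the sgCtrl range. The ratio of FECH to PPOX CPM was 0.784, 0.743 and 0.892 in sgCtrl and 1.12, 1.15 and 1.07 in sgCOX4I1, a log2 difference of 0.47.

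The 3 cytosolic synthesis enzymes overlapped between groups, with a median log2 fold change of -0.125. ALAD, which condenses aminolevulinate to porphobilinogen, was at 65.9, 62.3 and 67.8 CPM in sgCtrl and 59.3, 55.6 and 64.5 CPM in sgCOX4I1. Of the sgCOX4I1 libraries, #3 alone reached the sgCtrl range, and the log2 fold change was -0.13 ± 0.0807 (SE; adjusted p = 0.460). UROS, which closes the ring, was at 67.4, 79.8 and 70.6 CPM in sgCtrl and 74.1, 81.0 and 76.7 CPM in sgCOX4I1, and the spread within sgCtrl was wider than the difference between the means (log2 fold change 0.089 ± 0.0824 SE, adjusted p = 0.631). UROD, which removes carboxyl groups from the ring, was at 38.2, 36.9 and 31.3 CPM in sgCtrl and 30.9, 31.8 and 32.1 CPM in sgCOX4I1. The sgCtrl #3 library of UROD sat among the sgCOX4I1 libraries, and the log2 fold change was -0.17 ± 0.0951 (SE; adjusted p = 0.398). These genes lie at chr9:113386312-113401290 on the minus strand (ALAD, 12 exons), chr10:125784980-125823258 on the minus strand (UROS, 10 exons) and chr1:45010950-45015575 on the plus strand (UROD, 10 exons).

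The 2 biliverdin reductases were read at very different depths. BLVRA, the main reductase of biliverdin in adult tissue, had 0, 2 and 0 counts in sgCtrl and 7, 6 and 1 counts in sgCOX4I1, so it did not pass the filter. Every sgCtrl library was at or below 2 counts, and sgCOX4I1 #3, the deepest library, was within that range. Summed over the group, 2 of 57396824 counts gave 0.0348 CPM in sgCtrl (exact Poisson 95% interval 0.00422 to 0.126) and 14 of 70520320 gave 0.199 CPM in sgCOX4I1 (0.109 to 0.333), a ratio of 5.70 with an interval of 1.31 to 51.65, all for counting error only. Tested without the filter on low counts, which takes in the spread between libraries, the log2 fold change of BLVRA was 2.40 ± 1.29 (SE; adjusted p = 0.387) and did not pass the threshold. The gene (chr7:43758680-43807342, plus strand, 8 exons) shares no exon base with another annotated gene, and its promoter above held GC boxes and a CCAAT box, as did windows of ALAD and ALAS1.

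BLVRB, which reduces biliverdin IX beta and flavins, was at 29.0, 33.3 and 29.1 CPM in sgCtrl and 32.3, 34.5 and 33.0 CPM in sgCOX4I1. The sgCtrl #2 library was within the sgCOX4I1 range. The means were 30.5 ± 2.42 and 33.3 ± 1.09 CPM (SD, n = 3), and the log2 fold change was 0.13 ± 0.0914 (SE; adjusted p = 0.516). BLVRB (chr19:40447765-40465764, minus strand, 5 exons) has a pseudogene, BLVRBP1, with which reads could be shared.

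Of the heme oxygenases, HMOX1, the inducible form, was called and HMOX2 was not. Across all genes tested, 2.08% were called and 21.6% had separate ranges. HMOX1 was at 3.98, 6.84 and 8.45 CPM in sgCtrl and 13.3, 37.8 and 17.3 CPM in sgCOX4I1, so that all sgCOX4I1 libraries were above the sgCtrl libraries and #2 was the highest. It rose 3.48-fold (log2 fold change 1.80 ± 0.335 SE, adjusted p = 0.0163), and the call was lost without sgCOX4I1 #2 (1.25, adjusted p = 0.0603) and without sgCtrl #2 (adjusted p = 0.166). The sgCOX4I1 library with the highest HMOX1 was the library that kept the most COX4I1 RNA. HMOX2, the constitutive heme oxygenase, was at 42.8, 42.4 and 39.3 CPM in sgCtrl and 46.0, 47.0 and 46.4 CPM in sgCOX4I1, which did not overlap (log2 fold change 0.17 ± 0.0794 SE, adjusted p = 0.305). Relative to BLVRB of the same library, HMOX1 stood at ratios of 0.137, 0.206 and 0.290 in sgCtrl and 0.412, 1.10 and 0.523 in sgCOX4I1, a ratio also chosen after the values were seen and not tested.

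**Figure D3:**
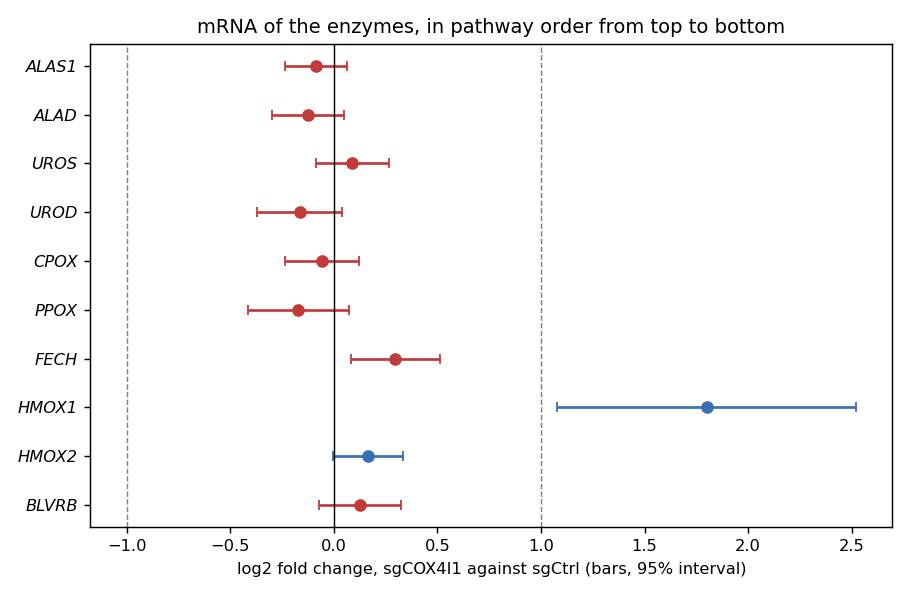
Log2 fold change of sgCOX4I1 against sgCtrl for tested enzymes in pathway order, from ALAS1 at the top to BLVRB at the bottom, red for the 8 genes described and blue for the heme oxygenases; bars are 95% intervals and dashed lines mark a 2-fold change. FECH at 0.30 and HMOX1 at 1.80 are the genes whose interval does not reach 0, and only HMOX1 lies past a dashed line.

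Genes that attach or modify heme for the respiratory chain were 3 of 3 above 0, and none was called. Among all genes tested, 2.08% were called and 21.6% had separate ranges. COX15, which makes heme a, was 59.8 ± 2.199 CPM in sgCtrl and 69.4 ± 5.56 CPM in sgCOX4I1 (SD, n = 3), with no overlap between groups, a log2 fold change of 0.22 and an adjusted p of 0.188. HCCS, which attaches heme to cytochrome c, had a log2 fold change of 0.18 (adjusted p = 0.450), and COX10, which makes heme o, 0.10 (adjusted p = 0.679).

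Among 16 genes of heme transport and binding, 12 were tested, 8 above and 4 below 0 (median 0.039 on the log2 scale), and 1 was called. Over all genes tested, 2.08% were called and 21.6% had separate ranges in the groups. ABCB10, a transporter of the inner mitochondrial membrane, rose from 102 ± 7.84 to 132 ± 11.9 CPM (SD, n = 3; log2 fold change 0.36, adjusted p = 0.0455), a call that was lost without any library but sgCtrl #1, in 5 of 6 such fits, with adjusted p-values of 0.0624 without sgCOX4I1 #2 to 0.219 without sgCtrl #2. The log2 fold change of ABCB10 itself stayed between 0.30 and 0.44 in all 14 alternatives. FLVCR1, long described as a heme exporter, was 31.3 ± 1.32 CPM in sgCtrl and 25.05 ± 1.03 CPM in sgCOX4I1 with no overlap (-0.32, adjusted p = 0.0871). SLC48A1, which carries heme out of lysosomes, was 19.9 ± 5.04 and 30.1 ± 6.50 CPM (0.59, adjusted p = 0.0979), and its groups overlapped. SLC48A1 was called in 5 of the 14 alternatives, among them DESeq2 (adjusted p = 0.0248), without sgCtrl #3 (0.0157) and without sgCOX4I1 #1 (0.0367), and its adjusted p was up to 0.366.

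Of 15 genes for mitochondrial iron and iron-sulfur clusters, the cofactor that FECH itself carries, 13 were tested, 8 above and 5 below 0 with a median of 0.065, and none was called. The share called over all genes tested was 2.08%. The smallest adjusted p-values were 0.338 for the assembly protein ISCA1 (log2 fold change 0.21) and 0.357 for the co-chaperone HSCB (-0.31).

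Of 16 regulators, 14 were tested, 8 above and 6 below 0 with a median of 0.035, and 1 was called. For these and the myeloid markers below, the shares over all genes tested were 2.08% called and 21.6% with separate ranges. LONP1, the mitochondrial protease that degrades ALAS1 protein when heme is plentiful, rose from 305 ± 13.9 to 380 ± 9.85 CPM (SD, n = 3; log2 fold change 0.32, adjusted p = 0.0369), and this call was lost in each of the 6 fits that left out a library (adjusted p from 0.0547 to 0.156), with a log2 fold change of 0.28 to 0.35. NRF1, a transcription factor of nuclear genes for mitochondria, was 30.1 ± 1.58 CPM in sgCtrl and 23.9 ± 0.109 CPM in sgCOX4I1 with no overlap (-0.34, adjusted p = 0.0750). MAFK, a partner of BACH1, had a log2 fold change of -0.27 (adjusted p = 0.193). Of the 12 myeloid markers 5 lay above and 7 below 0, and 1 was called. MPO, a myeloid granule enzyme that carries heme, fell from 227 ± 8.28 to 109 ± 6.57 CPM (log2 fold change -1.06, adjusted p = 1.595e-05) and had the smallest p of all genes tested. LYZ, the lysozyme gene, was 1590 ± 479 CPM in sgCtrl and 2717 ± 600.0 CPM in sgCOX4I1, with overlap between groups (0.77, adjusted p = 0.0534), and the receptor gene FLT3 had a log2 fold change of -0.23 (adjusted p = 0.190). EPOR, the erythroid marker with reads, had a log2 fold change of -0.29 (adjusted p = 0.226).

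**Figure D4:**
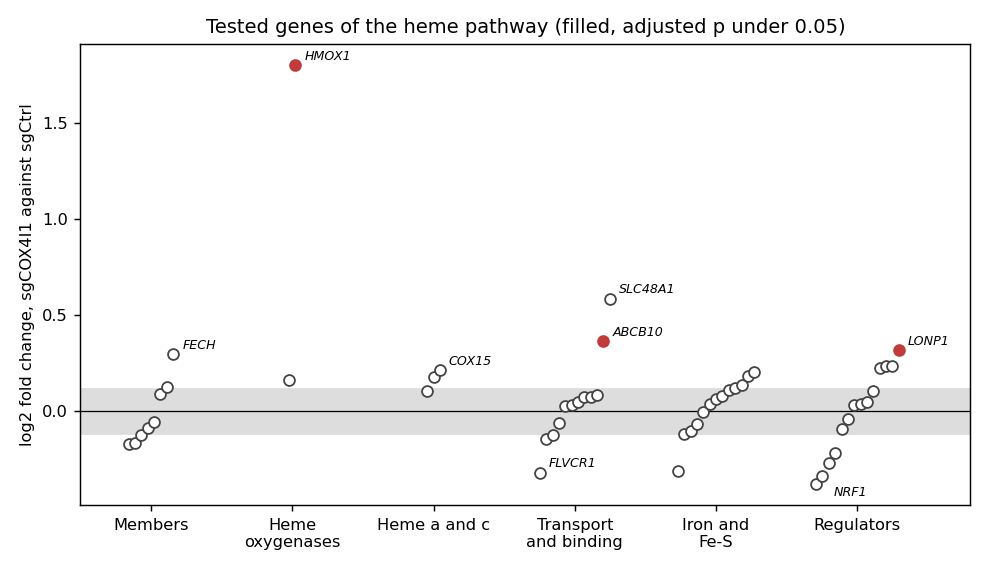
Log2 fold change of tested genes of the heme pathway by list, with filled red points for genes called at an adjusted p under 0.05, open points for the others and a grey band for the quartiles of all genes tested. The called genes are HMOX1 (1.80), ABCB10 (0.36) and LONP1 (0.32), none of them among the 9 genes described, where FECH is the highest point.

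Genes whose levels followed FECH most closely over the 6 libraries were GNPDA2, CGREF1, ZNF664, FIGNL1 and CHML. The measure was the root mean square difference of log2 CPM, each centred on its sgCtrl mean, and it ran from 0.0332 for GNPDA2 to 0.0528 for CHML, against a median of 0.241 over 8995 genes with at least 10 CPM on average. Their log2 fold changes lay between 0.29 and 0.31, and none was called, with adjusted p-values from 0.0617 for ZNF664 to 0.233 for CGREF1. The measure takes in the difference between groups, so fold changes near that of FECH follow from how these genes were picked.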

How the data were processed

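The values deposited by the authors are unnormalized integer counts in a single table (19845 gene symbols). All 6 sample columns of it were used (0 were left out), matched by letter and number to the labels. Per the labels, the submitters' processing notes name bcl2fastq 2.20.0.422, STAR 2.6.0a, edgeR and GRCh38, the column names point to STAR with marked duplicates, and the study's methods name Trimmomatic, Bowtie2 and RSEM. The libraries were directional, but the strand setting and annotation of the counting are not given in the sources used here.

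From these counts, edgeR 4.0.16 (R 4.3.3) was run on all 6 libraries with TMM factors, its filter on low counts, the quasi-likelihood test without covariates and Benjamini-Hochberg adjustment over 11861 genes. CPM are TMM-normalized. Intervals are the log2 fold change plus or minus the t quantile times the SE, with 13.7 degrees of freedom. Replicates within a group differed by more than sampling noise (chi-square per degree of freedom 11.0 to 27.8), and whether they came from separate cultures is given only as separate guides. Depth was 17241014 to 30861943 counts per library, and floors and Poisson intervals cover counting error only. Gene positions and lengths are from GENCODE 44. DESeq2 1.42.0, limma-voom (limma 3.58.1), other scalings and filters, the replicate block and leaving out each library were alternatives, and thinning to the smallest library and the exon length were added after the data were seen.

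The genes described, the pathway and marker lists and the tests were chosen with earlier results of these data known. Named genes were the 9 genes, the other pathway enzymes, COX4I1, up to 3 genes of each list with the smallest adjusted p and any called, and the 5 genes most like FECH. Some genes that this rule names are not reported here. In simulated counts with the depths and group sizes of these libraries, the test recovered 196 of 200 genes changed 3-fold and 63 of 200 changed 1.25-fold, with 12 others called among 11773 genes. The simulated spread was the trend at each gene's level, with none particular to a gene or a guide.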

Additional observations from a re-analysis of the deposited data

How the results depend on the processing

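The 8 tested genes kept the direction of their log2 fold change in all 14 alternatives except CPOX, which was 0.0105 without sgCOX4I1 #2 and ranged from -0.0958 to 0.0105 when libraries were left out in turn. Their median stayed below 0, from -0.0926 to -0.0328. Library numbers were fitted as a replicate block, although no label says that libraries of 1 number share more than that number. Same-numbered libraries correlated at 0.382, -0.0244 and 0.294 in their deviations from the group means, and sgCtrl #2 was closest to sgCOX4I1 #3. Libraries of different number correlated at -0.384 to 0.130. The replicate block called 1 of the 8 genes, FECH (adjusted p = 0.0494), against 0 without it, 1408 genes in all (11.9%) against 247, and 57 against 24 at 2-fold, and it also called COX4I1, COX15, FLVCR1, SLC48A1 and NRF1. FECH ranged from 0.25 to 0.35 with adjusted p-values of 0.0494 to 0.372 over the alternatives, and the adjusted p of HMOX1 from 7.97e-06 to 0.166. All genes called numbered 537 with no filter on low counts and 466 with DESeq2, and 41 at 2-fold with no filter; leaving out a library gave from 24 (without sgCtrl #2) to 561 (without sgCtrl #1) called genes and from 9 (without sgCtrl #2) to 50 (without sgCtrl #3) at 2-fold. Of the 8 genes, 2 to 5 did not overlap when a library was left out (5 without sgCtrl #2, 4 without sgCtrl #3 or sgCOX4I1 #3), where 28.2% to 37.8% of all genes did not. After thinning every library to the depth of the smallest, 1 of the 8 genes did not overlap, where 21.4% of all genes did not. The causes were not tested, beyond the smaller groups that leaving out a library makes. The median of all genes moved to at most 0.011 under another scaling. BLVRA had at most 7 counts in a library, and whether depth or the spread between libraries limits its test was not tested. In simulated counts 1.25-fold differences were mostly missed at this size.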
